A study of Homo sapiens with 24 samples.

Results

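The 10 genes described here encode the ubiquitin ligase NEDD4L with its relatives NEDD4, WWP1, WWP2 and ITCH, the epithelial sodium channel subunits SCNN1A, SCNN1B and SCNN1G, and the kinases SGK1 and SGK3. They are 10 of 60605 genes in a table of nascent transcription, and each symbol matched 1 row. The members were chosen by measured values among others, because *NEDD4L* was higher and *SCNN1A* lower after treatment with dTAG-13. The rule named each clone and pair of libraries, so the difference between dTAG-13 and DMSO in these 10 genes, over the clones and in each, is given as a description with no test. Their levels in DMSO between clones and their levels between collections were not part of that choice and were tested.

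NEDD4L belongs to a family of ubiquitin ligases whose WW domains grip short proline and tyrosine motifs in their targets. The tails of the sodium channel carry such motifs, so NEDD4L ubiquitinates the channel and draws it from the apical membrane of salt-absorbing epithelia. SGK1 is a kinase induced by glucocorticoids and mineralocorticoids, which phosphorylates NEDD4L so that adaptor proteins of the YWHA family hold it away from the channel, and SGK3 is a related kinase of the endosome that acts downstream of PI3 kinase in luminal breast cancer cells.

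PRO-seq (precision run-on sequencing) reads the growing ends of RNA that polymerase is making, and thus measures transcription in progress and not the stock of mature RNA. It was performed in Clones 28, 35 and 39 of T47D luminal breast cancer cells, whose own *TRPS1* gene was edited to add a degron tag. TRPS1 belongs to the GATA family and represses transcription, and dTAG-13 brings a ubiquitin ligase to the tag so that the protein is degraded. Each clone had 4 libraries in 0.1% DMSO for 90 minutes and 4 in 100 nM dTAG-13 for 90 minutes, which gives 6 groups and 24 libraries. All groups carried the degron-tagged *TRPS1* and grew in medium that contained insulin, an activator of the kinases upstream of SGK1 and SGK3. The paper reports that several genomic copies of *TRPS1* are knocked out in every clone, and that the cells make tagged protein only. Each clone is a single isolate of edited cells, so a difference between clones cannot be told apart from a difference between isolates. The replicates of a clone all come from 1 day and differ in the time of treatment and harvest. The p-values below measure the spread between such collections, except in fits with a term for the pair of libraries or the replicate number. Those fits, which include the test of the replicate number itself, measure the spread left once that term is taken off.

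The total count per library ranged from 3226718 to 9575803, with a median of 5042122. The *TRPS1* gene had 23280 to 69958 counts per library. Scaled to library size, it was not lower with dTAG-13. The scaled value was higher in 12 of 12 pairs of libraries of a clone with the same replicate number. The drug removes protein and not DNA, so these counts cannot check the loss of TRPS1. Genes of luminal breast epithelium were transcribed in every library, with *ESR1* between 5331 and 14598 counts, *PGR* between 5291 and 11519, *GATA3* between 2536 and 8383 and *KRT19* between 1089 and 3039. The basal keratins *KRT5* and *KRT14* had at most 2 and 5 counts in any library, *VIM* at most 13, *PTPRC* of leukocytes at most 25, *PECAM1* of endothelium at most 14 and *ALB* of liver at most 4. *TP63* of basal cells had 22 to 192 counts and *COL1A1* of fibroblasts 35 to 108.

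*NEDD4L* (ENSG00000049759) lies on the plus strand at chr18:58044226-58401540 in the GENCODE annotation of hg38 and spans 357315 bases, the longest of the 10 genes. RefSeq promoter windows (GRCh38.p14, 300 bases around a start) matched 6 of the 10 symbols, and *WWP1*, *SCNN1A*, *SCNN1G* and *SGK3* had none. In the 16 windows of *NEDD4L*, *NEDD4*, *WWP2*, *ITCH*, *SCNN1B* and *SGK1*, the GATA letters AGATAA or TGATAA were searched on both strands because TRPS1 binds GATA letters. The paper gives the motif of the family as (A/T)GATA(A/G). The forms that end in G were not searched, so windows counted as without GATA letters can hold those forms. The estrogen receptor half-site AGGTCA, of which the receptor binds inverted pairs, was searched on both strands as well. None of these letters overlapped another where they were found. Either of the GATA letters was in 4 of the 16 windows, 3 of the 5 of *NEDD4L* and 1 of the 3 of *SGK1*, against 16.3% of all 35116 windows of 300 bases (10.3% for AGATAA and 7.53% for TGATAA). The half-site AGGTCA was in 1 window, at a start of *NEDD4L* at chr18:58046976-58047275, against 13.8% of all windows. The 3 windows of *NEDD4L* with GATA letters are shown, with AGATAA or TGATAA, or their reverse complements TTATCT or TTATCA, in capitals on the plus strand. A match of letters is a description of the sequence and does not show that a factor bound there.
*NEDD4L* window chr18:58149070-58149369: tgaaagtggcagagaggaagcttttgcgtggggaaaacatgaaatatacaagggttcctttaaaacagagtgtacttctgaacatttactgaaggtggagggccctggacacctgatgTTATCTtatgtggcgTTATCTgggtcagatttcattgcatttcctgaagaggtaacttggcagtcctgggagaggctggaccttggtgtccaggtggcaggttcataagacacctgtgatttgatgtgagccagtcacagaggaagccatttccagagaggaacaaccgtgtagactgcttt
*NEDD4L* window chr18:58195155-58195454: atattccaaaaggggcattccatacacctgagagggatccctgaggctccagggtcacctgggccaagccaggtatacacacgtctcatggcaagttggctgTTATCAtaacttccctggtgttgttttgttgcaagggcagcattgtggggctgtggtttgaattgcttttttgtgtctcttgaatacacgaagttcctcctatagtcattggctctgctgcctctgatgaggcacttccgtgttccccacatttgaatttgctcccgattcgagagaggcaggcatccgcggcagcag
*NEDD4L* window chr18:58221321-58221620: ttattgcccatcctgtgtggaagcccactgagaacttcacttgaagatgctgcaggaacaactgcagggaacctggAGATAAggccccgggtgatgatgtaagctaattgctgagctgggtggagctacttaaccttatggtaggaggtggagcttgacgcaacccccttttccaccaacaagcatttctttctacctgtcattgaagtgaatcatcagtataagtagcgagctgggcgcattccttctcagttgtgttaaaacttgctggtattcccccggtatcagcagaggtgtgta

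The level of each gene was taken as CPM (counts scaled to library size with TMM factors) per kilobase of its annotated span. *ITCH* had the highest level with 2.77 ± 0.139 (SD, n = 24), followed by *WWP1* with 1.86 ± 0.247, *NEDD4L* with 1.28 ± 0.215 and *SGK3* with 1.09 ± 0.153. *SCNN1A*, which encodes the alpha subunit that the channel needs to conduct, had 0.920 ± 0.114. The ligases *WWP2* and *NEDD4* had 0.730 ± 0.0456 and 0.377 ± 0.0284. By span the beta and gamma subunits were far lower, with 0.149 ± 0.0576 for *SCNN1B* and 0.0554 ± 0.0205 for *SCNN1G*, and *SGK1* was lowest with 0.0529 ± 0.00715. *ITCH* was above *WWP1*, *WWP1* above *NEDD4L*, *WWP2* above *NEDD4* and *NEDD4* above *SCNN1B* in 24 of 24 libraries. Other neighbours in the order crossed over, as *NEDD4L* was above *SGK3* in 16, *SGK3* above *SCNN1A* in 17 and *SCNN1G* above *SGK1* in 14 of the 24 libraries. By span, *ITCH* stood at percentile 78.3 of 22268 tested genes, *NEDD4L* at 56.8, *SCNN1A* at 46.96, *SCNN1B* at 17.9 and *SGK1* at 11.1. The order depends on the length used, since by the union of exons *WWP1* was highest and 1 of the 10 genes held its place. The span of *SGK1*, 148865 bases, reaches to its farthest annotated start. RefSeq windows of *SGK1* also lie at chr6:134174817-134175116 and chr6:134177812-134178111, near the other end of the span at chr6:134169248. Which starts were in use was not tested, so the low place of *SGK1* by span holds only for the full annotated span.

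Depth set how closely each gene could be followed. *NEDD4L* had 1253 to 4744 counts per library, *ITCH* 1348 to 3877, *WWP1* 696 to 2295, *SGK3* 577 to 1244, *WWP2* 440 to 1315 and *NEDD4* 242 to 581. *SCNN1A* had 84 to 276 counts, *SCNN1B* 26 to 177, *SGK1* 23 to 84 and *SCNN1G* 3 to 19, so that changes of the size seen in *NEDD4L* were not detectable in a single library for *SCNN1G*. All 10 genes passed the filter on low counts. The reads of *SGK3* are uncertain, as 147739 bases of it are shared on the same strand with the readthrough gene *C8orf44-SGK3*, which has its own count of 28521 reads in all against 19880 for *SGK3*. Whether reads of the shared bases were counted in both genes is not given in the sources used here. In bulk libraries, fewer cells that transcribe a gene and less transcription in each cell cannot be told apart.

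**Figure D1:**
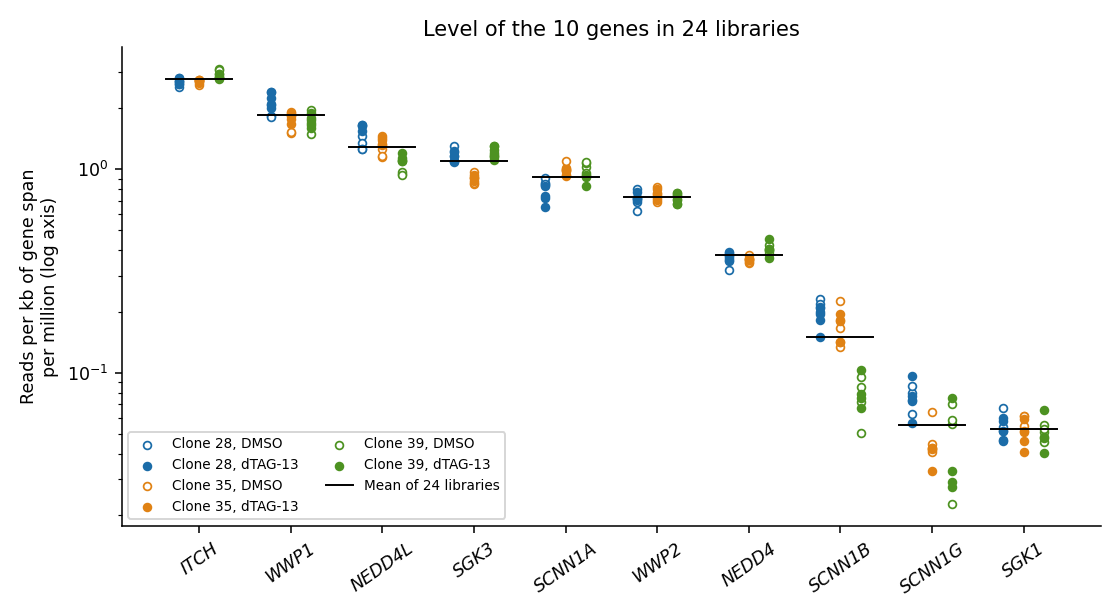
Level of the 10 genes in each of the 24 libraries, in reads per kilobase of gene span on the same scale, with a log axis. Colors mark the clones, open points DMSO, filled points dTAG-13 and bars the mean. *ITCH* leads with a mean of 2.77, *SGK1* has 0.0529, and *SCNN1B* falls into a low set in Clone 39.

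The comparison of dTAG-13 with DMSO asks how transcription differed 90 minutes after the start of TRPS1 degradation. *NEDD4L* had 519, 480, 449 and 448 CPM in DMSO replicates 1 to 4 of Clone 28 and 592, 586, 591 and 553 with dTAG-13. In Clone 35 it had 506, 447, 410 and 416 in DMSO and 523, 474, 496 and 471 with dTAG-13. In Clone 39 it had 392, 340, 345 and 334 in DMSO and 431, 397, 391 and 404 with dTAG-13. The dTAG-13 library was the higher of the pair in 12 of 12 pairs, as in 0.363% of all 22326 tested genes, and the groups were apart in Clone 28 and overlapped in Clones 35 and 39, where replicate 1 in DMSO reached the range of the treated libraries. The log2 difference was 0.21 (SE 0.036) over the clones, with 0.29 (SE 0.063), 0.14 (SE 0.063) and 0.20 (SE 0.063) in Clones 28, 35 and 39. Single pairs ranged from 0.046 to 0.40.

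*SCNN1A* (ENSG00000111319), on the minus strand at chr12:6346843-6377730, moved the other way. In Clone 28 it had 25.9, 26.4, 27.97 and 26.1 CPM in DMSO and 20.1, 22.9, 25.6 and 22.4 with dTAG-13. In Clone 35 it had 31.2, 30.6, 31.1 and 33.9 in DMSO and 30.3, 30.6, 28.9 and 28.6 with dTAG-13. In Clone 39 it had 31.7, 33.2, 29.7 and 33.4 in DMSO and 28.6, 25.5, 29.0 and 28.4 with dTAG-13. The dTAG-13 library was the lower of the pair in 12 of 12 pairs, as in 0.197% of all tested genes, and the groups did not overlap in any clone, although in Clone 35 the nearest values round to the same CPM. For *NEDD4L* and *SCNN1A*, the share of all tested genes whose groups are apart in this way was not counted, so nothing is read from it. The log2 difference was -0.17 (SE 0.049) over the clones, with -0.22, -0.11 and -0.20 in Clones 28, 35 and 39 (SE 0.088, 0.081 and 0.087), and single pairs ranged from -0.38 to -0.0029.

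The other ligases had smaller differences than *NEDD4L* in the same contrast. The log2 difference was 0.058 (SE 0.052) for *WWP1*, 0.018 (SE 0.038) for *NEDD4*, 0.0077 (SE 0.038) for *WWP2* and -0.016 (SE 0.027) for *ITCH*, whose pairs were higher in 8, 6, 6 and 6 of 12. Without single libraries these ran from 0.0407 to 0.0819, from -5.99e-07 to 0.0315, from -0.0096 to 0.0242 and from -0.0234 to -0.00694, and without Clone 39 *ITCH* had 0.00974, so that the sign was not stable for *NEDD4*, *WWP2* and *ITCH*. With a term for each pair of libraries *WWP1* had 0.064 (SE 0.027). By clone, without that term, it had 0.097, 0.084 and -0.0077 in Clones 28, 35 and 39. For the channel subunits *SCNN1B* and *SCNN1G* the log2 difference over the clones was -0.086 (SE 0.094) and -0.17 (SE 0.18), with 5 of 12 pairs higher in each. *SCNN1B* had -0.20 (SE 0.15), -0.11 (SE 0.15) and 0.15 (SE 0.20) in Clones 28, 35 and 39, with single pairs from -0.38 to 0.98, and those of *SCNN1G* ran from -1.01 to 1.35. Without single libraries the value over the clones ran from -0.128 to -0.0365 for *SCNN1B* and from -0.246 to -0.115 for *SCNN1G*. Without Clone 28 these genes had -0.0139 and -0.294, and without Clone 39 -0.151 and -0.102. For the kinases *SGK1* and *SGK3* the log2 difference was -0.084 (SE 0.094) and 0.010 (SE 0.037), with 5 and 8 of 12 pairs higher. Without single libraries these ran from -0.125 to -0.0544 and from -0.00126 to 0.0271, and without Clone 35 *SGK1* had -0.016. Of all 22326 tested genes, 0.358% passed the threshold of 0.1 on the adjusted p as higher and 0.193% as lower (123 genes or 0.551% in all). With a term for each pair of libraries (replicate block) these were 1.40% and 0.932% (2.33% in all). Because this contrast chose the set, the 10 genes are not counted against these shares.

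**Figure D2:**
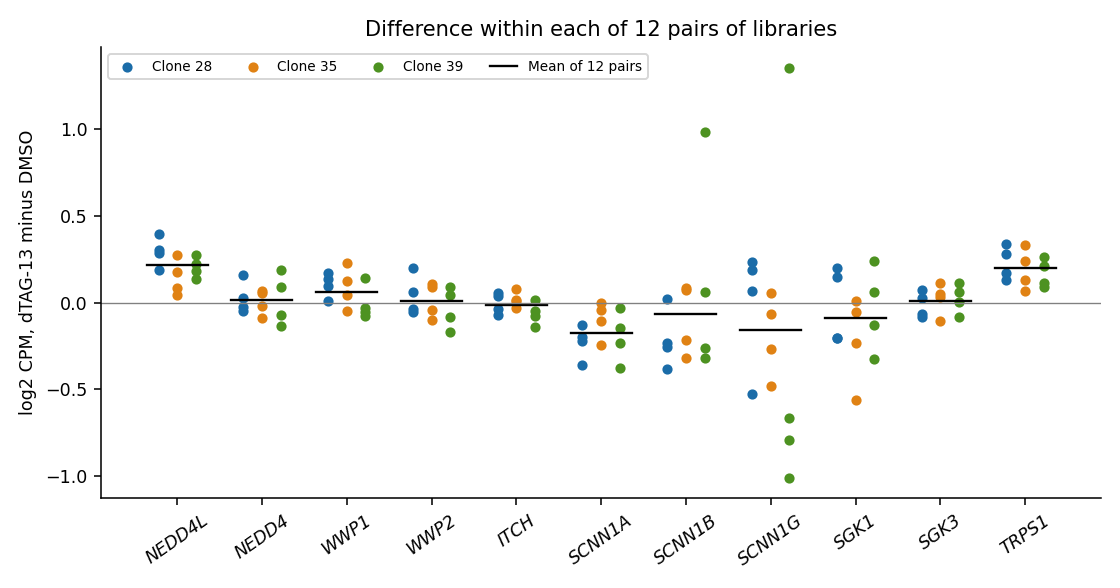
Difference in log2 CPM between the dTAG-13 and the DMSO library within each of 12 pairs, for the 10 genes and *TRPS1*. Colors mark the clones and bars the mean of 12 pairs. The points of *NEDD4L* lie above 0 from 0.046 to 0.40, those of *SCNN1A* below 0 from -0.38 to -0.0029, and those of *SCNN1G* spread from -1.01 to 1.35.

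Whether the response differed between the clones was tested with a clone by treatment term. Of the 22326 genes 0 passed the threshold in edgeR's quasi-likelihood test (0%), with 407 genes at an unadjusted p under 0.05, and 0 genes passed by DESeq2. With the replicate block 1 gene passed (0.00448%), with 1017 genes at an unadjusted p under 0.05. For the 10 genes nothing is read from this term, as it rests on the same differences in each clone that chose them.

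Without dTAG-13, the clones already differed in several of the genes. In DMSO, *SCNN1B*, the beta subunit (ENSG00000168447, chr16:23278231-23381294, plus strand), had 20.4, 21.4, 23.7 and 22.4 CPM in Clone 28 and 13.8, 17.1, 23.2 and 18.8 in Clone 35. It had 7.38, 8.75, 9.81 and 5.19 CPM in Clone 39. All 4 libraries of Clone 39 were below every library of the other clones, which overlapped with each other. The log2 difference of Clone 39 was -1.52 (SE 0.18) from Clone 28 and -1.27 (SE 0.18) from Clone 35, and edgeR's F-test over the 3 clones gave an adjusted p of 6.28e-08 (1.54e-20 to 0.423 over 34 alternatives, of which 33 passed). The 4 dTAG-13 libraries of Clone 39, with 7.72, 6.95, 8.12 and 10.6 CPM, were low as well, against 14.6 to 21.7 in those of the other clones. *SCNN1G*, the neighbouring gene on chromosome 16, had 2.49, 2.72, 2.15 and 2.95 CPM in Clone 28, 1.43, 2.20, 1.39 and 1.52 in Clone 35 and 2.39, 0.772, 1.91 and 1.998 in Clone 39, and did not pass the test (adjusted p = 0.248 by edgeR).

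*SCNN1A* had a different order of the clones. Clone 28 was lowest in DMSO, below Clone 35 by a log2 difference of 0.26 (SE 0.084) and below Clone 39 by 0.27 (SE 0.087), with an adjusted p of 0.0278 in edgeR's F-test (0.198 with no filter on low counts, and 0.0192 to 0.960 over 34 alternatives, of which 31 passed), and its 4 libraries lay below all 8 of the others. The clone with the least *SCNN1A* thus had the most *SCNN1B* by mean, as *SCNN1B* had 21.95 ± 1.41 CPM in Clone 28 (SD, n = 4), 18.2 ± 3.91 in Clone 35 and 7.78 ± 1.99 in Clone 39, where *SCNN1A* had 26.6 ± 0.949, 31.7 ± 1.47 and 32.0 ± 1.70. Per kilobase of span, *SCNN1A* was above *SCNN1B* in every library. By the union of exons their means over all libraries were closer, at 4.84 for *SCNN1A* and 3.96 for *SCNN1B*, and single libraries were not compared by that length.

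Among the ligases, *NEDD4L* was lower in Clone 39, with log2 differences of -0.43 (SE 0.063) from Clone 28 and -0.33 (SE 0.063) from Clone 35 (edgeR's adjusted p = 6.25e-06 over the 3 clones, with 6.99e-15 to 0.532 over 34 alternatives, of which 33 passed). Its 4 DMSO libraries in Clone 39 were all below those of Clones 28 and 35, and these differences were larger by point estimate than the one between dTAG-13 and DMSO within any clone. *WWP1* was higher in Clone 28 by mean, with log2 differences of -0.26 (SE 0.092) for Clone 35 and -0.23 (SE 0.092) for Clone 39, but its groups overlapped. Within each replicate number, however, Clone 28 was the highest of the 3 clones. Without the replicate block the adjusted p of *WWP1*, 0.0640 from edgeR, rested on single libraries. It was 0.305 without replicate 1 and 0.140 without replicate 2 of Clone 28 in DMSO. With the block, here the replicate number shared by the clones, it was 1.59e-06 by edgeR, the lowest of 34 alternatives, which reached 0.854 and of which 29 passed. *ITCH* was higher in Clone 39 by 0.15 (SE 0.047) than in either other clone (edgeR's adjusted p = 0.0184, and 0.103 without replicate 1 of Clone 39 in DMSO, with 4.86e-04 to 0.974 over 34 alternatives, of which 31 passed). *WWP2* and *NEDD4* did not pass (edgeR's adjusted p = 0.752 and 0.147), although *NEDD4* did with the replicate block, which between the clones is the replicate number shared by them (adjusted p = 0.0575 by edgeR, with 0.0575 to 0.947 over 34 alternatives).

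The kinases differed from each other. *SGK3* had 195, 165, 161 and 182 CPM in Clone 28, 145, 126, 127 and 136 in Clone 35 and 195, 176, 172 and 172 in Clone 39, all in DMSO. The 4 libraries of Clone 35 were below all others, with a log2 difference of -0.40 (SE 0.066) from Clone 28 and an adjusted p of 4.74e-06 in edgeR's F-test over the clones (4.04e-12 to 0.850 over 34 alternatives, of which 33 passed). *SGK1* had 9.94, 7.75, 6.89 and 8.05 CPM in Clone 28, 7.63, 9.13, 9.13 and 8.16 in Clone 35 and 7.58, 8.24, 7.90 and 6.79 in Clone 39. These values of *SGK1* overlapped between all clones (adjusted p = 0.752 by edgeR). In all, 6 of the 10 genes passed the threshold between the clones and 7 with the replicate block, where 28.5% and 39.7% of all tested genes did. The share of all tested genes with the libraries of a clone apart from those of the others was not counted.

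**Figure D3:**
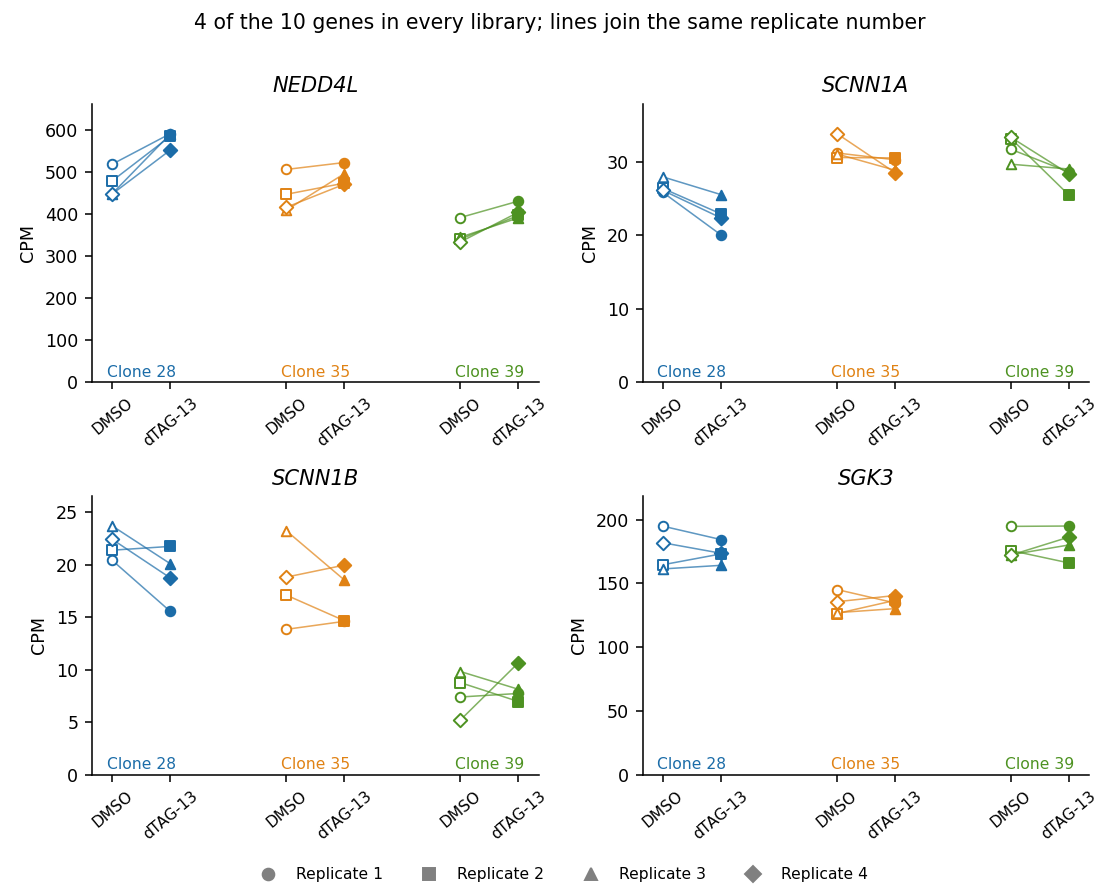
CPM of *NEDD4L*, *SCNN1A*, *SCNN1B* and *SGK3* in each library, on linear axes from 0. Lines join the DMSO (open) and dTAG-13 (filled) library of a clone with the same replicate number, and symbols mark the number. Clone 39 is low for *SCNN1B* (7.78 CPM by mean in DMSO) and Clone 35 for *SGK3*, while *NEDD4L* is higher with dTAG-13 in 12 of 12 pairs.

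Genes near these members were looked at next, a step chosen after the values were seen. For each gene, the 5 nearest tested genes on either side that do not overlap it were taken. Around *SCNN1B*, the difference between Clones 39 and 28 in mean log2 CPM had a median of 0.068 in the 10 neighbours, 3 of which were lower in Clone 39, against -1.48 for *SCNN1B* itself. The lowest of these neighbours was *SCNN1G* with -0.53. Around *NEDD4L* the median was 0.15, with 2 of 10 neighbours lower and the lowest at -0.0996, against -0.43 for the gene. Around *SGK3* the difference between Clones 35 and 28 had a median of 0.025, with 4 of 10 neighbours lower in Clone 35, against -0.39 for the gene. For *WWP1* these values were 0.086, with 3 of 10 lower, against -0.26, and between Clones 39 and 28 it had -0.23 beside a median of 0.036 and a lowest neighbour at -0.25. For *SCNN1A* the neighbours had medians of 0.088 for Clone 35 and -0.058 for Clone 39 from Clone 28, against 0.25 and 0.26 for the gene, and the highest neighbour in Clone 39, at 0.47, was above it. *ITCH* was level with its neighbours between Clones 39 and 28, with 0.15 for the gene and a median of 0.15 with 1 of 10 lower, while between Clones 39 and 35 it had 0.15 against a median of 0.016.

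Among the other genes of the pathway, 70 were taken from lists of channel partners, upstream receptors and kinases, relatives and adaptors of the ligases, NEDD4L substrates and glucocorticoid-induced genes, and all but *SLC12A3* of them, 69, could be tested. Between the clones in DMSO 35 of the 69 passed the threshold and 41 with the replicate block, where 28.5% and 39.7% of all tested genes did, with a median range of the clone means of 0.32 in log2 CPM against 0.26 over all tested genes. By list, 8 of 15 channel partners passed, 14 of 21 receptors and kinases, 4 of 17 ligase relatives and adaptors, 5 of 7 substrates and 5 of 10 glucocorticoid-induced genes, with *TSC22D3*, which passed, counted in both the first and the last list. The widest range was in *ZBTB16*, a transcription factor induced by glucocorticoids, with a log2 difference of -2.39 (SE 0.26) for Clone 39 from Clone 28 and an adjusted p of 2.73e-06 by edgeR. It was followed by the circadian repressor *PER1* with -0.89 (SE 0.20, and -1.297 from Clone 35), and the PI3 kinase subunit *PIK3CB* with -0.88 (SE 0.055) in the same comparison. The potassium channel *KCNQ1* was next and was 0.92 (SE 0.10) higher in Clone 39 than in Clone 35. After it came the adaptor *YWHAE* with -0.89 (SE 0.053) for Clone 39 from Clone 28, and *FURIN*, a protease that cleaves and activates the channel, was 0.82 (SE 0.26) higher in Clone 35 than in Clone 28. The adjusted p by edgeR over the 3 clones was 1.23e-05 for *PER1*, 2.39e-15 for *PIK3CB* and for *YWHAE*, 4.00e-08 for *KCNQ1* and 0.0570 for *FURIN*.

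The neighbours of these genes were looked at in the same way. *YWHAE* and *PER1* lie on chromosome 17, at chr17:1344275-1400222 and chr17:8140472-8156506. The median difference of Clone 39 from Clone 28 in their neighbours was -0.86 and -1.06, with 9 and 10 of 10 neighbours lower. Around *PIK3CB* on chromosome 3 it was -0.68, with 10 of 10 lower. Around *ZBTB16* it was 0.022, with 4 of 10 lower, and the lowest neighbour, at -2.89, was below *ZBTB16* itself at -2.38. *KCNQ1* had 0.90 for Clone 39 from Clone 35 beside a median of -0.093 in its neighbours, and *FURIN* 0.84 for Clone 35 from Clone 28 beside a median of -0.017. The substrate *DVL2*, which was named after its values were seen, lies between *YWHAE* and *PER1* at chr17:7225342-7234517. Its own difference of Clone 39 from Clone 28 in mean log2 CPM was -0.74, beside a median of -0.81 in its neighbours. Its fitted value was -0.77 (SE 0.15). Among other listed genes, also named after their values were seen, *OXSR1* had -0.32 beside a median of -0.33, with 10 of 10 neighbours lower. *INSR* had -0.71 beside a median of 0.21, with 2 of 10 lower. How many of the 35 listed genes past the threshold moved with their neighbours was not counted, so that number is not read as a trait of the pathway. The number of copies of these regions in each clone was not measured here, and its part in these values was not tested.

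**Figure D4:**
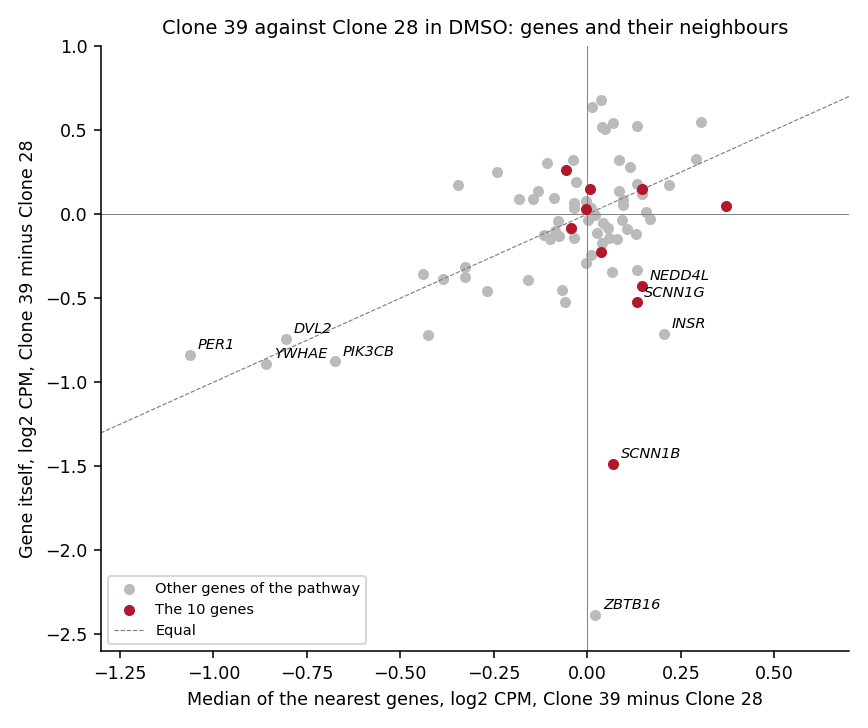
Difference of Clone 39 from Clone 28 in DMSO in mean log2 CPM, for each gene (vertical axis) against the median of the nearest tested genes on either side (horizontal axis). Red points are the 10 genes, grey points the other genes of the pathway, and the dashed line marks equal values. *PER1*, *YWHAE*, *DVL2* and *PIK3CB* lie near the line, while *SCNN1B* and *ZBTB16* lie below it, at medians of 0.068 and 0.022.

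In these lists, 0 of 69 genes passed the threshold between dTAG-13 and DMSO in either direction in edgeR's test and 0 by DESeq2, with 5 of 69 at an unadjusted p under 0.05 (4 higher and 1 lower). The median log2 difference was -0.034 over 15 channel partners, -0.015 over 21 receptors and kinases, 0.0040 over 17 ligase relatives and adaptors, -0.032 over 7 substrates and -0.067 over 10 glucocorticoid-induced genes, against -0.0018 over all tested genes. With the replicate block 2 of the 69 genes were higher and 2 lower, where 1.40% and 0.932% of all tested genes were. *INPP4B*, a phosphatase that makes the lipid SGK3 binds, rose by 0.17 with an adjusted p of 0.00120 by edgeR, and was higher in 12 of 12 pairs. The regulatory subunit *PIK3R1* rose by 0.10 (adjusted p = 0.0578 by edgeR, 9 of 12 pairs). Of the glucocorticoid-induced genes, *ZBTB16* fell by 0.20 (adjusted p = 4.09e-04 by edgeR, higher in 1 of 12 pairs) and *FKBP5*, a chaperone of steroid receptors, fell by 0.087 (adjusted p = 0.0533 by edgeR, higher in 2 of 12 pairs). Without the block their adjusted p by edgeR was 0.730, 0.708, 0.958 and 0.563. The difference between clones in this response was past the threshold for none of the 69 genes in edgeR's test or by DESeq2, with 0 of 69 at an unadjusted p under 0.05.

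The replicate number, which stands for the collection, was tested in all 24 libraries with the 6 groups in the model. This test counted the DMSO and the dTAG-13 library of a pair as separate values. *NEDD4L* and *WWP1* were highest in replicate 1. The mean deviation of *NEDD4L* from its group in log2 CPM was 0.11, -0.014, -0.038 and -0.063 in replicates 1 to 4 (edgeR's adjusted p = 1.50e-05), and replicate 1 was the highest of its group in each of the 6 groups. That of *WWP1* was 0.15, 0.068, -0.088 and -0.13 (edgeR's adjusted p = 3.19e-09), with replicates 1 and 2 above replicates 3 and 4 in every group. *SGK3* deviated by 0.097, -0.052, -0.065 and 0.019 (edgeR's adjusted p = 0.00171). For *SCNN1B* the deviations were -0.18, -0.022, 0.17 and 0.028 (edgeR's adjusted p = 0.0416), and the adjusted p was 0.105, 0.143 and 0.131 without replicate 1 of Clone 28 with dTAG-13, replicate 1 of Clone 35 in DMSO and replicate 3 of Clone 35 in DMSO (0.0119 to 0.529 over 34 alternatives).

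Of the other members 1 passed the threshold. *WWP2* deviated by 0.079, -0.019, -0.017 and -0.043 with an adjusted p of 0.0897 by edgeR, which was above 0.1 without any 1 of 13 of the 24 libraries (0.0138 to 0.532 over 34 alternatives). These were replicates 1 and 2 in DMSO and 1, 3 and 4 with dTAG-13 of Clone 28, replicates 1, 3 and 4 in DMSO and 1 and 4 with dTAG-13 of Clone 35, and replicates 1 and 4 in DMSO and 2 with dTAG-13 of Clone 39. *SCNN1A* and *SGK1* did not pass, with ranges of the 4 means of 0.051 and 0.16 and adjusted p of 0.948 and 0.714 by edgeR, nor did *NEDD4*, *ITCH* and *SCNN1G* (0.335, 0.266 and 0.758). Thus 5 of the 10 genes passed, where 37.2% of all tested genes did. The median total count was 4271054 in replicate 1, 4921468 in replicate 2, 5467914 in replicate 3 and 5231690 in replicate 4, and the part of depth in these values was not tested.

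**Figure D5:**
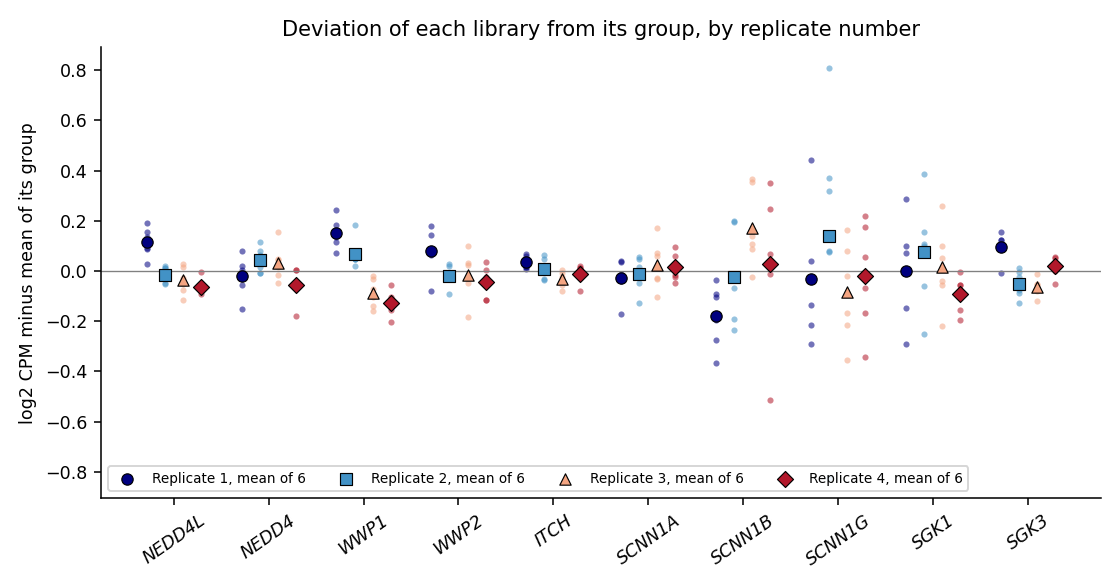
Deviation of each library from the mean of its group in log2 CPM, for the 10 genes by replicate number. Small points are libraries and large symbols the mean of the 6 libraries with that number. Replicate 1 is high for *NEDD4L* (0.11) and *WWP1* (0.15), while the 4 means of *SCNN1A* lie within a range of 0.051.

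Of the 69 other genes of the pathway, 36 differed between the replicate numbers, where 37.2% of all tested genes did, with a median range of 0.20 against 0.23 over all tested genes. By list these were 9 of 15 channel partners, 11 of 21 receptors and kinases, 8 of 17 ligase relatives and adaptors, 2 of 7 substrates and 6 of 10 glucocorticoid-induced genes, and *TSC22D3*, which is in both the first and the last list, did not pass. The widest was *CEBPD*, a transcription factor induced by glucocorticoids, with -0.30, -0.29, 0.20 and 0.39 in replicates 1 to 4 (edgeR's adjusted p = 0.00314). *ZBTB16* had 0.25, -0.38, -0.17 and 0.30 (edgeR's adjusted p = 4.18e-05). The adaptor genes *SFN* and *YWHAH* had their lowest mean in replicate 1 and their highest in replicate 4, over ranges of 0.65 and 0.38, and the channel subunit *SCNN1D* ranged over 0.56 with its highest mean in replicate 3. The clock gene *PER1* ranged over 0.35, with -0.12 and -0.17 in replicates 1 and 2 and 0.18 and 0.12 in replicates 3 and 4. Their adjusted p by edgeR was 0.00423 for *SFN*, 1.55e-07 for *YWHAH*, 0.00353 for *SCNN1D* and 0.0946 for *PER1*.

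Over the 24 libraries the Pearson correlation of *NEDD4L* with *SCNN1A* in log2 CPM was -0.689, and -0.674 once the mean of each clone was taken off. These libraries share clones, collections and the contrast that chose both genes, so the value describes them and is no evidence of a link. *NEDD4L* and *WWP1* had a correlation of 0.721, and 0.643 without the clone means. *NEDD4L* and *SCNN1B* had 0.669, which became -0.332 without the clone means, as both were low in Clone 39. Among 20816 genes with a mean of at least 10 counts, those most like *NEDD4L* were *FRS2* (0.943), *PATJ*, *EHF*, the unnamed gene ENSG00000279277 and *CD47* (0.935), and those most opposed were *HS6ST1* (-0.915), *DENND3*, *NBPF1*, *NACC2* and *NCS1* (-0.900). For *SCNN1A* they were *CDH3* (0.844), *RBBP8NL*, *RASA3*, *GATA5* and *ADIRF* (0.820), against *LINC02840* (-0.840), *LINC02994*, *DPY19L1*, *TTC41P* and *SART3* (-0.815). With the clone means taken off, 1 of these 20 genes stayed on the lists.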

How the data were processed

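PRO-seq counts of 24 libraries (3 clones, 2 treatments, 4 replicates each) were used. The authors removed adapters, deduplicated reads by molecular identifiers, reverse complemented them, removed ribosomal reads, aligned the rest and used bedtools to count them per gene. The submitters' processing notes name cutadapt 1.8.1, Bowtie2 2.4.4, SAMtools 1.9 and hg38. The deposited values are counts, whole numbers without normalization. The annotation and strand setting are not given in the sources used here. In the values, non-coding genes of at least 1000 bases inside a host with at least 5000 counts had a median density of 0.779 of the host's on the same strand (479 pairs) and 0.0426 on the opposite strand (1507 pairs), so the counts followed strand. Identifiers, names and places were matched to GENCODE release 44.

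Counts were fitted in R 4.3.3 with edgeR 4.0.16 (quasi-likelihood, robust). filterByExpr on the 6 groups (minimum count of 10) left 22326 genes, scaling was by TMM, and p-values were adjusted by the Benjamini-Hochberg method across every tested gene, with the study's threshold of 0.1. The 3 clones together were fitted with clone and treatment. The baseline, the clone by treatment term and the replicate number were tested from models with the 6 groups. Log2 CPM have a prior count of 2. DESeq2 1.42.0 was an alternative, beside other scalings, filters, thresholds and left-out libraries and clones.

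The replicate number pairs the libraries, because it stands for 1 time of harvest with both treatments. As the replicate block, the models of treatment carried 12 pair terms, while the model of the differences between clones in DMSO had the replicate number shared by the clones, since terms for pairs would take up the clones. Deviations of paired libraries correlated with a mean of 0.185 across genes (0.0926 to 0.318 over 12 pairs). Replicates of a group differed by more than sampling noise, with a chi-square per degree of freedom of 1.64 to 13.6 over 36 pairs.

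The members and lists were chosen with earlier results of these data known. Named were the 10 genes, *TRPS1*, listed pathway genes past the threshold with dTAG-13 with or without the block, up to 6 listed genes with the widest range among those past it between clones and between replicate numbers, and the 5 genes most like and most unlike *NEDD4L* and *SCNN1A*. The look at neighbouring genes was added after the values were seen. Protein sequences were not used here.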

Additional observations from a re-analysis of the deposited data

Results flagged for a closer look

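In 60 groups of 4 libraries (10 genes in 6 groups), 5 libraries stood apart from the other 3 of their group in log2 CPM, where chance alone singles out about 1 in 20 groups, or 3 of 60. With dTAG-13, replicate 4 of Clone 28 had 9.11 for *NEDD4L*, below 9.19 to 9.21 in the others. In DMSO, replicate 3 of Clone 35 had 8.58 for *ITCH*, below 8.66 in the other libraries. *SCNN1G* had 0.59 in replicate 1 of Clone 35 with dTAG-13, below 0.86 to 0.89, and 1.57 in replicate 2 of Clone 39 with dTAG-13, above 0.40 to 0.59, and these values rest on 6 and 10 counts. *SGK3* had 7.61 in replicate 1 of Clone 39 in DMSO, above 7.43 to 7.46. The causes were not tested. In none of the 10 genes did all 4 pairs of one clone move up and all 4 of another down.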

How the results depend on the processing

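The log2 difference between dTAG-13 and DMSO ran from 0.17 to 0.25 for *NEDD4L* and from -0.21 to -0.15 for *SCNN1A* under 33 alternatives. Both genes were chosen for these directions, which all 12 pairs shared, so the alternatives are no test of the sign. The number of genes past the threshold in that contrast was 123, and 197 with no filter on low counts, 521 with the replicate block, 64 at a threshold of 0.05, 1, 37 and 37 without Clones 28, 35 and 39, and 66 to 149 without single libraries. It was at most 80 without replicate 3 or 4 in DMSO or 1 or 2 with dTAG-13 of Clone 28, replicate 3 of Clone 35 with dTAG-13 or replicate 3 of Clone 39 in DMSO. For pathway genes the count of 0 became 4 with the replicate block. Between clones in DMSO, leaving out Clone 39 took the counts from 6361 to 1159 for all genes, from 35 to 9 for pathway genes and from 6 to 1 for the 10 genes. Without Clone 28 they were 4970, 30 and 4, and without Clone 35 they were 5640, 27 and 5. Single libraries left out gave 5565 to 6394, 32 to 36 and 5 to 6. *ITCH* and *SCNN1A* did not pass with no filter (adjusted p = 0.298 and 0.198 by edgeR, with 4.86e-04 to 0.974 and 0.0192 to 0.960 over 34 alternatives). For the replicate number, 8306 genes became 5251 without Clone 28 and 5239 by DESeq2 (7605 to 8453 without single libraries), and the 5 of the 10 genes became 3 without Clone 28, without Clone 35 and by DESeq2, where *WWP2* and *SCNN1B* did not pass (3 to 5 without single libraries, 30 to 38 for pathway genes). In the 12 DMSO libraries alone the replicate number gave 6448 genes, 28 pathway genes and 5 of the 10 genes. The difference between clones in the response gave 6 genes with no filter and 1 with the replicate block in place of 0, and 0 without any single library. By length of the union of exons 1 of the 10 genes held its place in the order of levels, and with clone means taken off 1 of the 20 genes most like *NEDD4L* or *SCNN1A* stayed. The block could not be applied to the replicate number, and a setting without each clone in turn was not planned for the difference between clones in the response. Between clones in DMSO, the replicate block changed no call of the 10 genes other than that of *NEDD4*. The causes of these changes were not tested. Precision is limited by depth for *SCNN1G* (3 to 19 counts), *SGK1* and *SCNN1B*, and for all 10 genes by 4 replicates from a single day and 1 isolate per clone.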
